A study of Mus musculus with 64 samples.

Results

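The cytosolic ribosomal protein genes encode the protein subunits of the ribosomes that translate nuclear-encoded mRNAs. They were chosen by symbol (Rpl and Rps genes, Rplp0 to Rplp2 and Rpsa, without pseudogenes and ribosomal S6 kinases), which gave 81 of the 16913 genes in the table. These were 43 genes of the large subunit, 31 of the small subunit, 3 of the ribosomal stalk (Rplp0, Rplp1 and Rplp2, which recruit translation factors) and 4 paralogs of other members (Rpl3l, Rpl22l1, Rpl7l1 and Rps27l). The rule uses no measured value, and all 81 genes passed the filter on low counts.

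Bulk RNA of hearts from C57BL/6J mice was sequenced after depletion of ribosomal RNA, in 64 libraries. Transgenic mice (TG) carry the cTnT-delta160E form of cardiac troponin T, a model of hypertrophic cardiomyopathy, and nTG mice lack the transgene. Mice either did not exercise (sedentary) or ran treadmill intervals, called high intensity interval training (HIIT), in 3 sessions of 31 min a week for 6 weeks, with fast and slow bouts set to 85% and 50% of a speed measured in a graded test. Male nTG groups held 7 sedentary and 8 trained libraries and male TG groups 9 and 8; female nTG groups held 8 and 10, and female TG groups 8 and 6. The labels themselves state 7 to 9 samples a group, which differs from these 6 to 10.

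The labels used here give neither the age of the mice nor the promoter of the transgene. They number the libraries of a group as biological replicates without saying that each is 1 heart, so p-values measure the spread between libraries. Total counts were 34.6 to 67.1 M per library. By their names, 32 of the 64 gene columns went against the labelled sex, so each gene column was assigned to the lncRNA column it correlated with best. All 64 pairs were mutual best matches (r 0.599 to 0.863, and at most 0.404 for the next best). After this assignment 0 libraries went against sex, and Tnnt2, the gene of cardiac troponin T, was at 6903 to 12001 CPM (counts scaled to a common library total of 1 M) in TG and 2665 to 3428 CPM in nTG libraries. In bulk tissue, fewer cells of a type and less RNA per cell cannot be told apart.

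Ribosomal proteins are made in near-equal amounts, and their mRNAs share a pyrimidine-rich 5′ end, the terminal oligopyrimidine (TOP) sequence, through which mTORC1 and LARP1 control their translation. In striated muscle the paralog RPL3L takes the place of RPL3 near the ribosome's peptidyl transferase centre. A larger heart needs more protein synthesis, and ribosome content is one of the quantities known to grow with cardiac hypertrophy.

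The start sites of genes from which the results below are drawn show how the pyrimidine run varies among members. RefSeq promoters (GRCm38.p6) matched 61 of the 81 members. Each window holds 30 bases of the gene's strand, from 10 bases before the annotated start to 20 bases after it, and capitals mark the part in this window of the longest run of C and T within 20 bases of the start; for Rps3a1 that run lies outside it. Rpl35a, Rps21, Rpl23 and Rps3a1 were higher in trained TG males, Rps26 differed between genotypes in sedentary males, Rpl7a was lower in TG hearts on average, and Rpl3l is the muscle paralog.
Rpl35a: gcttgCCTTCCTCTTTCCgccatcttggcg
Rps21: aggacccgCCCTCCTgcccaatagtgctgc
Rpl23: gTCCggtcacgtggctgagtgggcggggcc
Rps3a1: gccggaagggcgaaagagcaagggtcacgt
Rps26: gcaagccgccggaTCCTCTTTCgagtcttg
Rpl7a: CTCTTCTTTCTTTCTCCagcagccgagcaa
Rpl3l: ttctagctctgtcatttgaCCTCTggtgcc

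The windows lie at chr16:33056472-33056501 (plus strand) for Rpl35a, chr2:180257369-180257398 (plus) for Rps21, chr11:97782420-97782449 (minus) for Rpl23 and chr3:86142649-86142678 (minus) for Rps3a1. Those of Rps26, Rpl7a and Rpl3l lie at chr10:128626487-128626516 (minus), chr2:26910797-26910826 (plus) and chr17:24727816-24727845 (plus). The search was for any unbroken run of at least 8 bases that are each C or T, within 20 bases on either side of the start. Such a run was found in 30 of 61 members (49.2%) and in 3193 of 17492 protein-coding genes (18.3%). On the opposite strand the shares were 8.2% of members and 19.8% of coding genes. Rpl35a, Rps26 and Rpl7a held such a run, while Rps21, Rpl23, Rps3a1 and Rpl3l held none in this window of the annotated start. Of the 23 genes higher in trained TG males 17 matched, and 10 of them held a run, against 20 of the other 44 matched members.

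Members differed widely in level. Mean CPM ran from 1.502 for Rpl22l1 to 447 for Rps2, a small-subunit protein at the mRNA entry, with a median of 73.9 CPM over the 81 genes. Per kilobase of transcript, Rps2 had the highest mean level (448 CPM per kb), and the stalk genes Rplp0 and Rplp1 stood at 268 and 229 CPM per kb. Many members have processed pseudogenes: a median of 55.4% of a member's 50-base words also occurred in transcripts of other genes, with 0% for Rpl3l, 85.6% for Rpl3 and 98.6% at most. Levels of members that share words depend on how such reads were counted.

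As a share of all gene counts, members took 0.699% (median; 0.668 to 0.772) in sedentary nTG males and 0.686% (0.659 to 0.735) in trained nTG males. In TG males the medians were 0.721% (0.701 to 0.772) when sedentary and 0.731% (0.695 to 0.791) when trained. Among females, nTG medians were 0.754% without and 0.749% with training, and TG medians were 0.753% and 0.747%. The ranges of all 8 groups overlapped. One sedentary TG female library (replicate 4) was at 0.630%, below the 0.723 to 0.799% of the other 7.

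In the counts as deposited, with TMM scaling, training in TG males had more called ribosomal protein genes than the other 7 comparisons of 2 groups by genotype or training. Of 81 members, 23 rose and 1 fell (edgeR quasi-likelihood test, Benjamini-Hochberg adjusted p under 0.05 over all genes), against 18% of all 16913 genes called in the same comparison, 10.3% called higher and 7.6% called lower. The 24 were 13 large-subunit genes, 9 small-subunit genes and the paralogs Rpl22l1 and Rps27l. The 23 that rose did so by 1.10-fold (Rps4x) to 1.51-fold (Rpl22l1). The median log2 fold change was 0.09 over members and 0.00 over all genes, and 64 of 81 members were above 0 against 50.0% of all genes. The share of genes called depends on the low-count genes included. Among genes with a mean of at least 1 CPM, edgeR called 25 members and 24.9% of genes. Limma voom called 30 members and 26.8% of all genes.

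**Figure D1:**
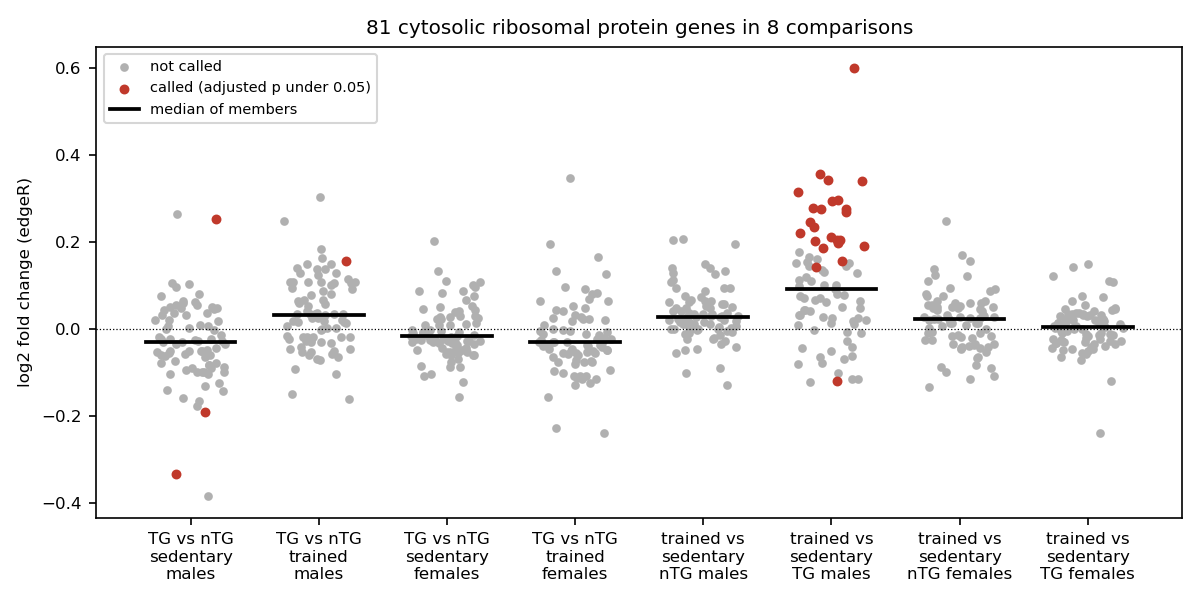
Log2 fold changes of the 81 members (points) in the 8 comparisons of 2 groups; red points passed an adjusted p under 0.05 and black bars are member medians. Red points cluster above 0 in trained against sedentary TG males, where 23 rose and 1 fell.

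Among small-subunit genes, Rps3a1, whose protein lies near the mRNA exit site, had its lowest group median in sedentary TG males. Its lowest single library, at 74.5 CPM, lay in another group. Rps3a1 ranged from 88.6 to 109 CPM with a median of 97.0 in the 9 sedentary TG males. In the 8 trained TG males it ranged from 112 to 130 CPM with a median of 117. Every trained TG male was above every sedentary TG male. The log2 fold change was 0.27 ± 0.07 (SE; adjusted p = 0.00405, edgeR).

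Rps21 of the small subunit ranged from 16.8 to 22.7 CPM (median 20.5) in sedentary TG males and from 22.2 to 28.95 CPM (median 24.5) in trained ones. The groups met only at their edges. Its log2 fold change was 0.32 ± 0.08 (adjusted p = 0.00523, edgeR). Small-subunit genes Rps25 and Rps12 also had no overlap between groups, with Rps25 at 34.3 to 44.6 CPM in sedentary and 44.6 to 58.2 CPM in trained TG males, and Rps12 at 77.2 to 90.6 and 93.2 to 103 CPM. With Rps3a1 these were 3 members whose trained libraries all lay higher, against 0.763% of all genes.

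Among large-subunit genes, Rpl23, which binds MDM2 when free of ribosomes, ranged from 37.3 to 44.8 CPM (median 41.1) in sedentary and from 42.8 to 55.7 CPM (median 49.0) in trained TG males. The ranges overlapped narrowly. Its log2 fold change was 0.28 ± 0.07 (adjusted p = 0.00528, edgeR). Rpl30 was 1.27-fold and Rpl35a 1.28-fold higher, with adjusted p of 0.00594 and 0.00598 (edgeR).

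Rpl5, which carries 5S rRNA into the large subunit, was 1.15-fold higher in trained TG males (adjusted p = 0.0185, edgeR).

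Among paralogs, Rpl22l1 was at 0.710 to 1.72 CPM (median 1.10) in sedentary and 1.55 to 1.98 CPM (median 1.72) in trained TG males. Its log2 fold change of 0.60 ± 0.18 (adjusted p = 0.0167, edgeR) was the largest of any member in this comparison, at a mean of 73.1 counts per library. Rps27l, which p53 induces, had a log2 fold change of 0.34 ± 0.12 (adjusted p = 0.0415, edgeR). Their parent genes were not called. Rpl22 was at 32.2 to 34.9 CPM in sedentary and 33.7 to 40.0 CPM in trained TG males, and Rps27 at 16.04 to 22.4 and 19.2 to 23.7 CPM. None of the stalk genes was called, with Rplp2 nearest (log2 fold change 0.10, adjusted p = 0.0518, edgeR).

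**Figure D2:**
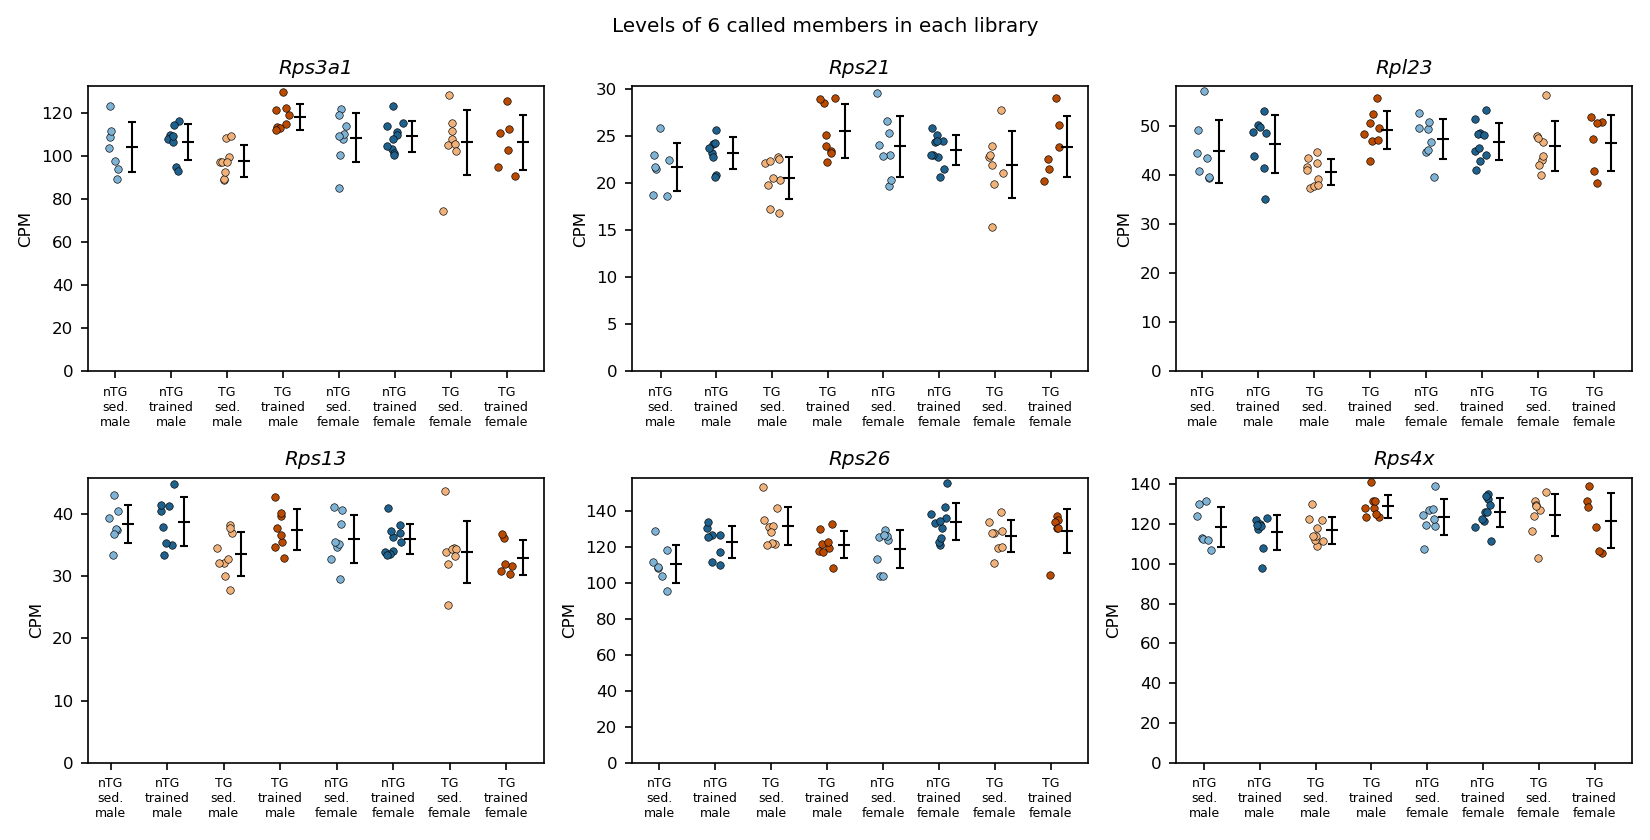
CPM of 6 called members in each library (points) of the 8 groups, with mean and SD beside them; every axis starts at 0. Trained TG males lie above sedentary TG males for Rps3a1, with narrow overlap for Rps21 and Rpl23, while sedentary TG males lie lowest in median for Rps13 among male groups.

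The base composition of transcripts moved with this comparison in members and in other genes. Other genes with a mean of at least 10 CPM had a median log2 fold change of 0.17 below 44% GC, 0.09 at 44 to 48%, 0.02 at 48 to 52%, -0.05 at 52 to 56% and -0.13 above 56%. Members had medians of 0.30, 0.20, 0.13, 0.05 and -0.04 in the same bins, higher than other genes in each of the 5. Across the 77 members that are not paralogs, log2 fold change and GC content had a Pearson r of -0.60 and a Spearman rho of -0.62. Log2 fold change and mean log2 CPM had a Pearson r of -0.62 and a Spearman rho of -0.63 across the same genes. Genes of 1 library share depth and are not independent, and these are descriptions.

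When each library was corrected for GC content, an alternative added after seeing the data, 8 members were called, all higher, and 7 of them were among the 24. All genes called fell to 2.41%. The 8 were Rplp2, Rps21, Rps7, Rps3a1, Rpl30, Rpl35a, Rpl38 and Rpl31, with Rps21 at a log2 fold change of 0.34 and Rps3a1 at 0.22 (adjusted p = 0.0227 and 0.0351, edgeR). Rpl23 was then at 0.19 (adjusted p = 0.0699, edgeR). Corrected member medians were 0.12, 0.11, 0.10, 0.10 and 0.07 from the lowest to the highest GC bin, and those of other genes were within 0.01 of 0. The member median over all 81 genes was 0.10 with the correction and 0.09 without it. With the correction and the replicate block 5 members were called, against 2.88% of all genes, as many members as in the genotype comparison of sedentary males (5, against 23.5% of all genes).

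**Figure D3:**
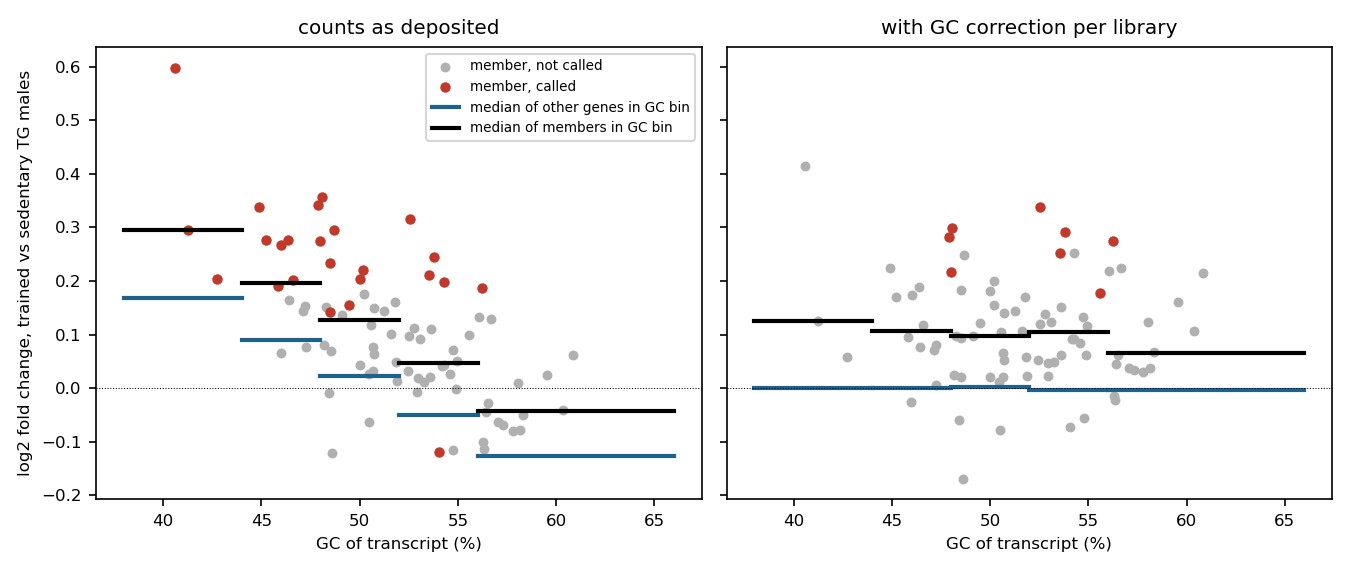
Log2 fold change of members in trained against sedentary TG males by GC content of the transcript (%), from the counts as deposited (left) and with a GC correction per library (right). Blue bars, medians of other genes per GC bin, slope from 0.17 to -0.13 on the left and lie near 0 on the right, and black bars, member medians, lie above them in every bin.

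Single libraries bore on the count: without trained TG male replicate 2 it was 12, without replicate 7 it was 14, and without sedentary TG male replicates 2, 6 and 9 it was 15, 13 and 15. Rps3a1, Rps21 and Rpl23 stayed past the threshold in all 17 fits that left out 1 library. Markers of other cells moved too. All 5 blood markers fell (summed 290.4 to 4603 CPM in sedentary and 259.6 to 554 CPM in trained TG males), as did 4 of 6 macrophage markers (182 to 314 and 176 to 311 CPM) and 2 of 7 fibroblast markers (829.03 to 1441 and 792 to 1783 CPM). For blood, sedentary replicate 5 stood apart at 0.486% of counts, with the other sedentary TG males at most at 0.116%. The group medians were 0.056% in sedentary and 0.040% in trained TG males. Of 5 endothelial markers 2 fell, and 2 of 6 cardiomyocyte markers rose. Their part in the result was not tested.

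Other parts of the translation machinery were followed in the same comparison, in which 10.3% of all genes were called higher and 7.6% lower. Of 32 initiation factors 11 rose and 1, Pabpc1, fell; the risers included Eif3e (log2 fold change 0.29), Eif1 (0.23) and Eif5 (0.24). Of 78 mitochondrial ribosomal protein genes 18 rose and 0 fell, with a median of 0.09. None of 8 elongation factors was called, and ribosome biogenesis genes split evenly, with 7 of 56 higher and 7 lower. Of 17 other TOP mRNAs 5 rose, among them Tpt1 (0.18) and Npm1 (0.17), and 1 fell. Of 28 regulators of mTORC1, MYC and TOP mRNAs 3 rose, including Rps6kb1 (0.17) and Rheb (0.16), and 1, Rps6kb2, fell (-0.23). Of 4 ribosomal proteins outside the rule Rpl36al rose (0.16), and of 8 p53 targets of ribosomal stress 1 rose and 2 fell.

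The other training comparisons gave 0 called members by edgeR. In nTG males 3 members and 5.91% of all genes had an unadjusted p under 0.05, 0% of genes were called, and DESeq2 and limma voom called 0 members and 0.0293% and 0.00591% of genes (for DESeq2, here and below, of genes with an adjusted p). In nTG females 9 members and 14.2% of all genes had an unadjusted p under 0.05 and 0.148% of genes were called. There DESeq2, which gave 18 members no adjusted p, called 0 members and 2.3% of genes, and limma voom 1 member and 0.591% of genes. In TG females 0 members and 3.58% of all genes had an unadjusted p under 0.05, 0% of genes were called, and both other tools called 0 members (0% of genes by DESeq2 and 0.0177% by limma voom). Rps3a1 had a median of 103 CPM in sedentary and 109 CPM in trained nTG males, 107 and 107 CPM in sedentary and trained TG females, and 109.7 and 109 CPM in nTG females.

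Whether the training response differed by genotype or sex was tested as an interaction. In males, the genotype by training interaction called 0 members by edgeR, DESeq2 (1 member without an adjusted p) and limma voom, with 12 members and 14.8% of all genes at an unadjusted p under 0.05 by edgeR. The shares of genes called were 0% by edgeR, 0.00812% by DESeq2 and 1.77% by limma voom. The smallest p belonged to Rps26 (log2 difference -0.27 ± 0.08, adjusted p = 0.155, edgeR), and Rps3a1 stood at 0.24 ± 0.10 (adjusted p = 0.243). In TG mice, the training by sex interaction called 0 members by edgeR and DESeq2 (1 member without an adjusted p) and 6 by limma voom, with 10 members and 18.1% of all genes at an unadjusted p under 0.05 by edgeR. All genes called were 0% by edgeR, 1.51% by DESeq2 and 5.48% by limma voom. Without sedentary TG female replicate 4 or trained TG female replicate 6, edgeR called 2 members, both lower. Rps3a1 was at -0.27 ± 0.10, female minus male (adjusted p = 0.136, edgeR). The genotype by training interaction in females called 0 members by edgeR, with 1 member and 6.46% of all genes at an unadjusted p under 0.05 and 0% of genes called. A response of TG males that differs from the other groups was therefore not shown by edgeR or DESeq2 with all libraries. Nor was an equal one shown. The 6 members that limma voom called for training by sex, all lower, did pass the threshold.

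The genotype comparisons showed few ribosomal protein genes. In sedentary males 3 of 81 members were called, against 20.6% of all genes (9.39% higher, 11.2% lower), with Rps26 higher and Rpl3l and Rps13 lower in TG. Rps26, a protein at the mRNA exit channel, was at 95.2 to 129 CPM (median 108) in the 7 nTG and 121 to 153 CPM (median 131) in the 9 TG libraries. The ranges overlapped at 1 end. The log2 fold change was 0.25 ± 0.06 (adjusted p = 0.000972, edgeR).

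Rps13 was at 33.5 to 43.1 CPM (median 37.7) in sedentary nTG and 27.8 to 38.3 CPM (median 32.8) in sedentary TG males, with a log2 fold change of -0.19 ± 0.07 (adjusted p = 0.0467, edgeR). The ranges overlapped over their middle part. This call was lost without sedentary nTG replicates 1, 2, 4, 5 and 6 or TG replicates 2, 4, 5, 6 and 9 (adjusted p of 0.0606 to 0.145, edgeR) and with the GC correction (-0.15, adjusted p = 0.125, edgeR), whereas Rps26 and Rpl3l kept theirs in all 16 fits without 1 library. It was also lost in edgeR fits with median-of-ratios scaling (adjusted p = 0.0549), scaling on other genes (0.0535), a filter at 1 CPM (0.0605), the replicate block (0.0650) and only these groups (0.0523), at log2 fold changes of -0.17 to -0.18. Without sedentary nTG male replicate 7 the count of called members was 5. Limma voom also called 5 (2 higher, 3 lower), against 25% of all genes. The split was 3 higher and 1 lower with the GC correction (22.6% of all genes called), and 4 and 1 with that correction and the replicate block.

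In trained males 1 member, Rps4x, was called higher, against 14% of all genes called and 5.65% called higher. This X-linked small-subunit gene was at 97.8 to 123 CPM in trained nTG and 123 to 141 CPM in trained TG males, and every TG library was higher (log2 fold change 0.16 ± 0.05, adjusted p = 0.0385, edgeR). Such separation upward held for 0.532% of all genes. The call was lost in 6 of 16 fits without 1 library: nTG replicates 1 and 7 and TG replicates 1, 2, 6 and 8, with adjusted p of 0.0506 to 0.124 there (edgeR). The count of called members was 2 without nTG replicate 2 or 8 or TG replicate 4 or 7, and 3 without nTG replicate 6. Sedentary and trained male comparisons share no library. In trained TG males all 5 blood markers were lower (summed 573 to 1112 CPM in nTG and 259.6 to 554 CPM in TG), 4 of 7 fibroblast markers were higher (636 to 875 and 792 to 1783 CPM), as were 4 of 6 macrophage markers (128 to 178 and 176 to 311 CPM). Of 6 cardiomyocyte markers 2 were lower, as was 1 of 5 endothelial markers, and 1 of 5 lymphocyte markers was higher. Their part in the Rps4x difference was not tested.

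In females no member passed the threshold by edgeR with TMM scaling of all libraries. In sedentary females 4.37% of genes were called, and 2 members and 16.4% of all genes had an unadjusted p under 0.05, and DESeq2 and limma voom called 0 members and 5.96% and 7.5% of genes. In trained females 14.8% of genes were called, and 8 members and 28.8% of all genes had an unadjusted p under 0.05, with 1 member (higher) and 15.4% of genes called by DESeq2 and 8 members (1 higher, 7 lower) and 21.2% of genes by limma voom. With the replicate block edgeR called 3 members, all lower, against 11.7% of genes. Rps27l stood nearest in trained females (3.20 to 5.51 CPM in nTG and 4.25 to 7.00 CPM in TG, log2 fold change 0.35 ± 0.13, adjusted p = 0.0522, edgeR). It passed in edgeR fits with median-of-ratios scaling (adjusted p = 0.0460), scaling on other genes (0.0455), a filter at 1 CPM (0.0323) and the GC correction (0.0206), and with DESeq2 (0.0368) and limma voom (0.0247), at log2 fold changes of 0.35 to 0.37. It also passed by edgeR without nTG replicate 2, 4 or 5 or TG replicate 3 or 4. Leaving out nTG replicate 4 gave 4 called members, TG replicate 3 gave 3, nTG replicate 2 gave 2, and nTG replicates 5, 7 and 10 or TG replicates 1 and 4 gave 1. In trained females 4 of 7 fibroblast, 5 of 6 macrophage and 1 of 2 tested skeletal muscle markers were higher in TG. There 3 of 6 cardiomyocyte markers were lower. The part of these markers in the member values was not tested. The difference between the sexes in the sedentary genotype effect called 0 members by edgeR, DESeq2 and limma voom, with 1 member and 8.7% of all genes at an unadjusted p under 0.05 by edgeR and 0%, 0.00591% and 0% of genes called by edgeR, DESeq2 and limma voom.

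Averaged over the 4 genotype comparisons, 9 of 81 members were called (3 higher, 6 lower in TG), against 39% of all genes (18.5% higher, 20.5% lower). This average uses all 64 libraries and shares them with the comparisons above. Those higher included Rpl3 (log2 fold change 0.20 ± 0.06) and Rpl10a (0.09 ± 0.02), the protein of the L1 stalk, with adjusted p of 0.00372 and 0.000694 (edgeR). Lower were Rpl3l (-0.22), Rps29 (-0.11), Rps13 (-0.11), Rpl7a (-0.07), Rpl28 (-0.06) and Rpl8 (-0.06). The medians were -0.01 over members and 0.01 over all genes tested.

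Which members passed changed with the GC correction. With the GC correction 18 members were called, 17 higher and 1 lower, against 42.2% of all genes, and 4 of the 9 were shared, Rpl3, Rpl10a and Rpl3l among them. Rpl7a and Rps13 then stood at -0.03 and -0.07 with adjusted p of 0.267 and 0.122 (edgeR). With median-of-ratios scaling the split was 5 higher and 6 lower (39% of all genes called), and with genes of at least 1 CPM it was 6 and 5 (45.8%).

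In the same average of the counts as deposited, where 18.5% of all genes were called higher and 20.5% lower, 59 of 78 mitochondrial ribosomal protein genes, which serve the organelle's own ribosome, fell and 1 rose, with a median of -0.11. Of 32 initiation factors 14 fell and 2 rose, and 4 of 8 elongation factors fell and 2 rose. Among the latter, Eef1a1 was higher (log2 fold change 0.18) and its muscle isoform Eef1a2 lower (-0.09). Ribosome biogenesis genes were called higher in 15 and lower in 7 of 56. Of 28 regulators, 3 rose, including Myc (0.44), and 10 fell, including Mtor (-0.10). Of the 17 other TOP mRNAs 2 rose and 5 fell, of 8 p53 targets 5 rose and 1 fell, and of 4 ribosomal proteins outside the rule 2 fell. Markers of other cells moved with genotype: in sedentary males all 7 fibroblast and all 6 macrophage markers were higher in TG, and 4 of 6 cardiomyocyte markers were lower. Also higher there were 2 of 5 lymphocyte markers and, of those tested, 1 of 2 adipocyte and 1 of 2 skeletal muscle markers. In the average, all 7 fibroblast and all 6 macrophage markers were higher, and 3 of 5 blood, 2 of 5 endothelial and 5 of 6 cardiomyocyte markers were lower. Higher in it too were 2 of 2 skeletal muscle markers tested, 1 of 4 atrial and 1 of 5 lymphocyte markers. Their part in the member values was not tested.

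On average over the 4 genotype comparisons, the muscle paralog Rpl3l fell and its parent Rpl3 rose in TG hearts. Rpl3l was at 123 to 183 CPM (median 168) in sedentary nTG and 104 to 154 CPM (median 126) in sedentary TG males. All 9 TG libraries lay below the nTG median, and the ranges overlapped. The log2 fold change was -0.33 ± 0.09 (adjusted p = 0.00613, edgeR).

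In trained males Rpl3l was at 131 to 183 CPM (median 155) in nTG and 91.9 to 174 CPM (median 145) in TG libraries. In sedentary females it was at 128 to 164 CPM (median 148) and 114 to 144 CPM (median 130), and in trained females at 123 to 197 CPM (median 159) and 120 to 166 CPM (median 132). All 3 comparisons overlapped and did not pass the threshold by edgeR, with log2 fold changes of -0.16, -0.16 and -0.24 and adjusted p of 0.259, 0.42 and 0.0813 (edgeR). Without nTG replicate 4 or TG replicate 3 the comparison of trained females passed (adjusted p = 0.0361 and 0.0444, edgeR), and it passed with limma voom (-0.30, adjusted p = 0.0105). Over the 4 comparisons Rpl3l had an average log2 fold change of -0.22 ± 0.05 (adjusted p = 8.85e-05, edgeR), and -0.18 with the GC correction.

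Rpl3 medians were 59.9 CPM in sedentary nTG and 77.3 CPM in sedentary TG males, 61.9 and 73.4 CPM in trained males, 71.1 and 74.7 CPM in sedentary females and 67.4 and 71.6 CPM in trained females. Each TG median was the higher of its pair and each pair of ranges overlapped. No single comparison passed the threshold by edgeR (log2 fold changes of 0.26, 0.25, 0.11 and 0.17), in contrast to their average. Without nTG replicate 6 or TG replicate 1 the sedentary male comparison did (adjusted p = 0.0145 and 0.0312, edgeR), as it did with limma voom (0.29, adjusted p = 0.0427), with the GC correction (0.30, adjusted p = 0.0467, edgeR) and with that correction and the replicate block (0.32, adjusted p = 0.0413, edgeR).

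Per length, Rpl3l stood above Rpl3 in every group. The median ratio of Rpl3l to Rpl3 was 2.73 without and 2.48 with training in nTG males, and 1.57 and 1.92 in TG males. Females had ratios of 2.13 and 2.33 in nTG and of 1.801 and 1.78 in TG. Ratios are given as a description, since both genes were tested above, and their ranges overlapped between genotypes. No 50-base word is shared between Rpl3l and Rpl3.

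**Figure D4:**
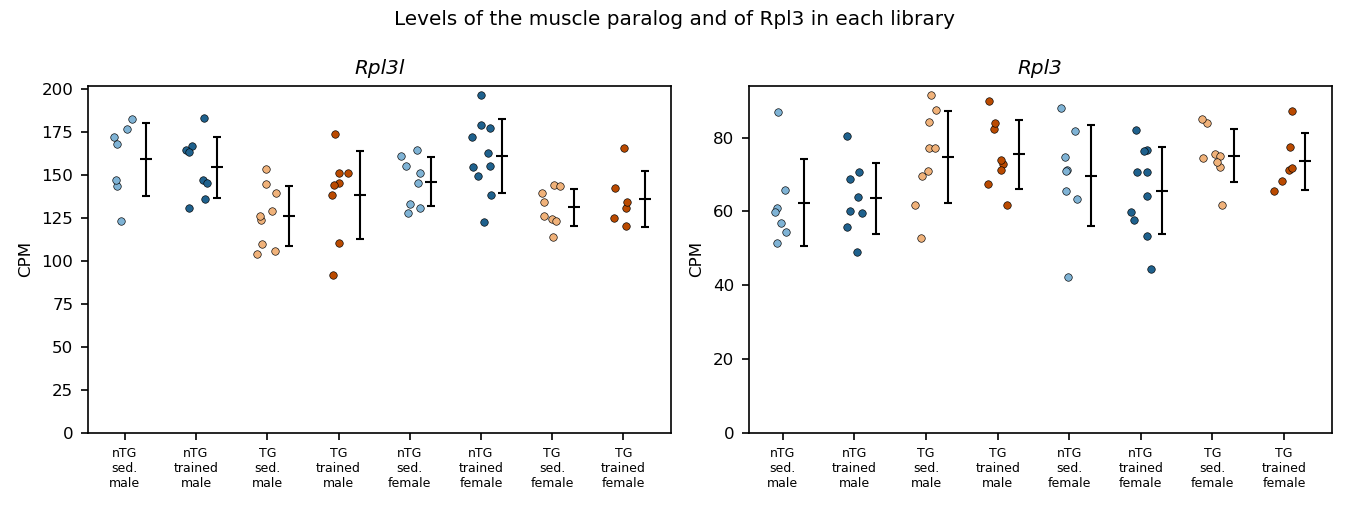
CPM of Rpl3l (left) and Rpl3 (right) in each library (points) of the 8 groups, with mean and SD beside them and axes from 0. TG medians of Rpl3l lie below, and those of Rpl3 above, the nTG medians in all 4 pairs of groups.

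Within groups, after subtracting group means, Rpl3l and Rpl3 had a Pearson r of -0.44 over 64 libraries. The genes most like Rpl3l by this measure, out of 13396 ranked, were Eci1 (r = 0.87), which acts in fatty acid oxidation, Pccb (0.73), Ppil1 (0.71), Creg1 (0.69) and Eno3 (0.69), the muscle enolase. Eci1 and Ppil1 lie on chromosome 17, as Rpl3l does, starting at bases 24426641 and 29250803 against 24727820 for Rpl3l. In the genotype average Eci1 (log2 fold change -0.19), Pccb (-0.14), Ppil1 (-0.27), Creg1 (-0.23) and Eno3 (-0.15) were called lower in TG too. Whether position bears on these values was not tested. The genes least like Rpl3l were Bicc1 (r = -0.66), Srgap3 (-0.65), Tram2 (-0.64), Fgr (-0.64) and Dap (-0.64). These libraries share depth and composition within each column, and the values are descriptions.

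Of the other paralogs, Rps27l in trained females passed or missed the threshold by setting, as given above. With the GC correction Rpl7l1 was called in the genotype average (log2 fold change 0.07, adjusted p = 0.0295, edgeR). It lay at 21.3 to 30.6 CPM over all 64 libraries. Rpl22l1 lay at 0.706 to 2.98 CPM and Rps27l at 3.20 to 7.57 CPM. The stalk genes were not called by edgeR with TMM scaling in any 2-group comparison of the counts as deposited, though Rplp2 was with the GC correction in TG-male training. Rplp0 medians were 348 to 393 CPM, Rplp1 medians 108 to 122 CPM and Rplp2 medians 73.7 to 83.6 CPM across the 8 groups. Rpsa, which doubles as a laminin receptor, ranged from 186 to 431 CPM over the 64 libraries.

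Members rose and fell together from library to library within groups. Over the 77 members that are not paralogs, the median pairwise r was 0.49 over 64 libraries (2926 pairs, 92.1% above 0, from -0.42 to 0.93). Members with a median r below 0.1 with the others included Rps2 (-0.05), Rps26 (-0.01), Rpl29 (0.04) and Rpsa (0.06). Members' median r and GC content had a Pearson r of -0.40 across the 77 genes, and depth and base composition of a library are shared by all pairs.

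**Figure D5:**
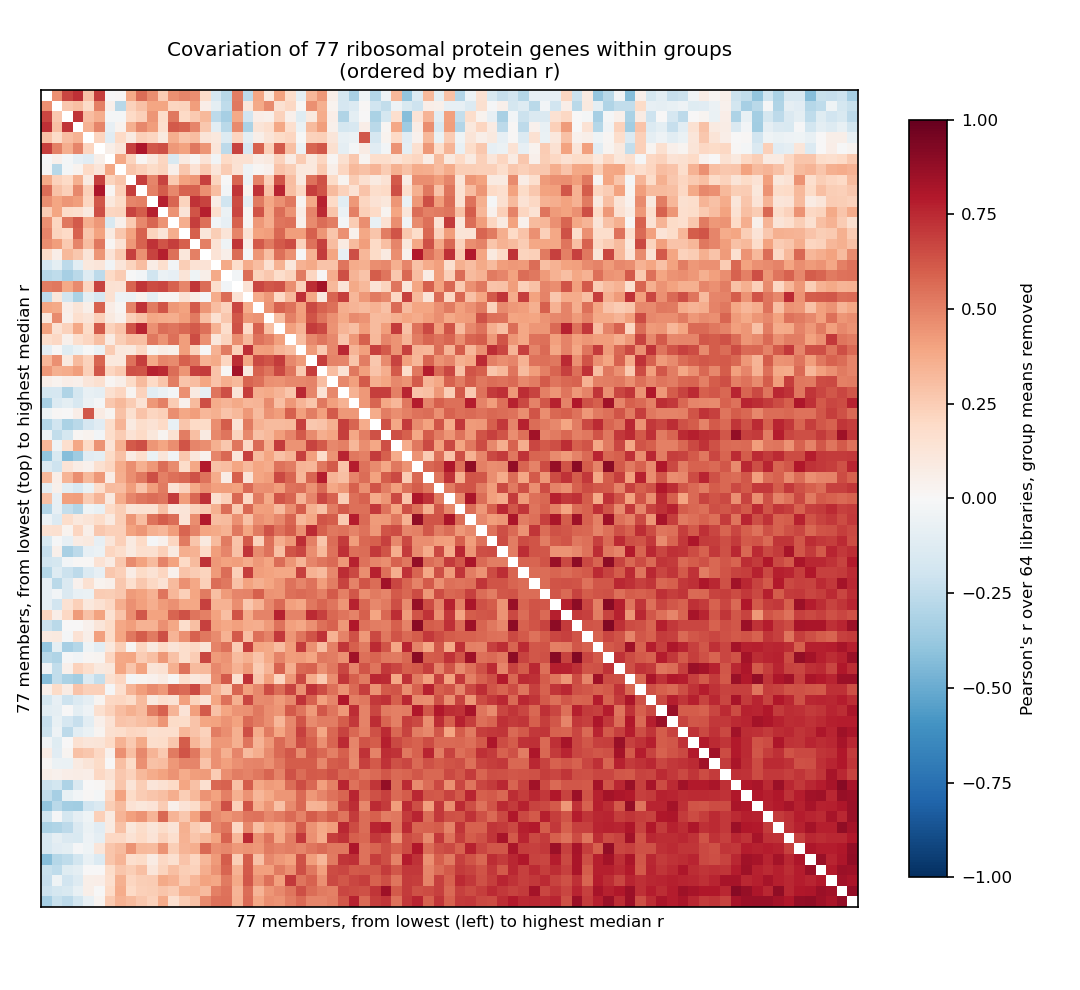
Pearson's r between 77 members over 64 libraries after subtracting group means, ordered by median r; each row and column is 1 member. Most of the map is above 0, with a median of 0.49, and the few members at the top left have a median r below 0.1 with the rest.

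Between sexes, in sedentary nTG hearts, edgeR called 0 members against 2.22% of all genes, with 2 members and 15.2% of all genes at an unadjusted p under 0.05 and 0 called by DESeq2 or limma voom, which called 3.42% and 3.15% of genes. Rpl22 was at 33.6 to 41.5 CPM in males and 31.9 to 35.9 CPM in females (log2 fold change -0.13 ± 0.04, female minus male, adjusted p = 0.0994, edgeR).

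RNAs that host small nucleolar RNAs were followed in the lncRNA table, with library sizes from the assigned gene columns. Of 15 listed hosts, several of which start with a TOP sequence, 9 were in the table and 3 (Snhg5, Snhg8 and Snhg18) had counts enough to test. None was called by edgeR in the 8 comparisons, in which the share of 1107 transcripts called was 1.45%, 0.542%, 0.271% and 2.89% by genotype (sedentary and trained males, then females) and 0%, 0.271%, 0% and 0% by training (nTG and TG males, then females), and DESeq2 called 0. At an unadjusted p under 0.05, 1 host was found in each of 3 comparisons. Snhg8 in TG males had the smallest p: 0.101 to 0.477 CPM (median 0.238) in sedentary and 0.262 to 0.757 CPM (median 0.425) in trained libraries, with a log2 fold change of 0.79 ± 0.28 (adjusted p = 0.259, edgeR). The ranges overlapped, and at these levels a library holds few counts.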

How the data were processed

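Gene counts of 16913 genes were deposited as whole numbers for 64 heart libraries, and expected counts of 3787 lncRNA transcripts were deposited beside them. Per the submitters' processing notes the tools were cutadapt 2.3, FastQC 0.11.8, MultiQC 1.7, STAR 2.7.8a and RSEM 1.3.3, with builds GRCm38 and mm10; which step made which table is not given in the sources used here. Libraries were rRNA-depleted and prepared with a broad-range RNA kit, per the labels. Ensembl identifiers were matched to GENCODE M21 symbols (16879 of 16913).

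Each lncRNA column, whose name gives the label, received the gene column with the highest correlation of centred log2 CPM (pseudocount 0.5) over 389 autosomal transcripts with a mean of at least 20 counts. Counts were tested with edgeR 4.0.16 (R 4.3.3) by the quasi-likelihood F test after TMM scaling, with 1 mean for each of 8 groups. filterByExpr kept all 16913 genes. p-values were adjusted by Benjamini-Hochberg over all genes, with a threshold of 0.05. CPM used TMM-scaled library sizes. Expected counts were rounded and used the library sizes of the joined gene column. Alternatives were DESeq2 1.42.0, limma 3.58.1 (voom), other scalings and filters, columns by name, a replicate block, leaving out each library and, added after seeing the data, a lowess GC correction per library. Lengths, GC content and 50-base words came from 1 principal transcript per gene.

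The genes named are the paralogs and their parents, the stalk genes and Rpsa, and in each comparison the 3 rising and 3 falling called members with the smallest p and a mean of at least 50 counts; others were named after their values were seen. Values of some genes are not reported here; they stay in the counts. The members and lists were chosen with earlier results of these data known. In data simulated for training in TG males over 16913 genes, the test recovered 51% of 200 genes changed by 0.25 and 83% of those changed by 0.5 on the log2 scale.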

Additional observations from a re-analysis of the deposited data

Results flagged for a closer look

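In 9 of 120 groups of values examined, the highest or lowest library stood apart from the others by Dixon's test, where chance at 1 in 20 gives 6. Among males, Rpl3 was at 86.9 CPM in sedentary nTG replicate 6 (others 51.4 to 65.7), Rpl22 at 39.4 CPM in trained nTG replicate 2 (others 32.7 to 34.5) and Rpl7a at 176.8 CPM in trained nTG replicate 6 (others 154 to 164). Rps4x was at 141.2 CPM in trained TG replicate 2 (others 123 to 131). Without that library Rps4x lost its genotype call in trained males (log2 fold change 0.14).

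Sedentary TG female replicate 4 was low in 3 quantities: the members' share of gene counts (0.6297%, others 0.723 to 0.799%), Rpl7l1 (21.34 CPM, others 25.8 to 27.9) and Rpl7a (131.4 CPM, others 153 to 162). Sedentary TG female replicate 7 was high in Rps27l (7.569 CPM, others 3.79 to 5.44). Trained TG female replicate 6 had 104.2 CPM of Rps26 (others 131 to 137).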

How the results depend on the processing

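Shares in parentheses are of all genes called in the same fit. Gene columns by name gave 0 called members (0%) in TG-male training, both male genotype comparisons and the genotype average, and turned Rpl3 (-0.0319 in the average, -0.15 sedentary, -0.16 trained males), and Rpl3l (0.0615) and Rps4x (-0.0645) in trained males. For trained-male genotype, DESeq2 (16.5%), scaling on genes other than members and mitochondrially encoded genes (14.1%), the 1 CPM filter (18.6%), limma voom (15.6%) and the GC correction without (12.9%) and with the block (13.1%) gave 3, median-of-ratios 2 (14%) and only these groups 4 (12.7%), all higher in TG. For trained-female genotype DESeq2 (15.4%), median-of-ratios (14.2%), that other scaling (14.2%) and the 1 CPM filter (16.8%) gave 1 and GC 2 (16.1%), all higher, and voom 8 (21.2%), 7 of them lower. Voom gave 5 for sedentary-male genotype (25%), 1 for nTG-female training (0.591%) and 6, all lower, for training by sex (5.48%). GC correction gave 8 for TG-male training (2.41%) and 18 for the average (42.2%).

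Same-numbered libraries did not pair (median r 0.006, 10 of 64 best with their own number). With the replicate block TG-male training had 21 calls (17.4%), 20 of the 24, trained-male genotype 3, all higher (14.1%), and trained-female genotype 3, all lower (11.7%). Block and GC together gave 5 for TG-male training (2.88%), 5 for sedentary-male genotype (23.5%; 4 higher and 1 lower, against 1 and 2 without either), 1 for sedentary-female genotype (5.82%), 3 for trained males (13.1%) and 18 for the average (41.6%).

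Leaving out 1 library gave 12 to 26 for TG-male training, 8 to 11 for the average, 2 to 5 and 0 to 3 for sedentary and trained male genotype, 0 to 4 for trained-female genotype, 0 to 2 for training by sex and 0 to 0 elsewhere. Without mitochondrially encoded genes, members' median shares were 0.841, 0.838, 0.870 and 0.883% (males: sedentary and trained nTG, sedentary and trained TG) and 0.905, 0.896, 0.908 and 0.888% (females). The causes of these shifts were not tested. Depth limits the lncRNA hosts and Rpl22l1. Most members share words with other genes, and the effect of this on their values was not tested.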
